A study of Microtus ochrogaster with 34 samples.

Results

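Among the 23038 gene identifiers of the testis RNA-seq table, the first 37 run consecutively, and their order, with the recovered lengths of those that had reads, matches a vertebrate mitochondrial genome. A length could be recovered for the 8 identifiers described here and for 7 others of the run, and for none of the 22 without reads. The 8, which had the most reads of the run, were inferred by place and length to be the 12S rRNA (ENSMOCG00000000002, 949 bases), the 16S rRNA (ENSMOCG00000000004, 1520 bases), 4 tRNAs (ENSMOCG00000000005, ENSMOCG00000000013, ENSMOCG00000000014 and ENSMOCG00000000015, of 75, 70, 68 and 67 bases), COX3 (ENSMOCG00000000023, 784 bases) and CYTB (ENSMOCG00000000035, 1143 bases). No name accompanies these identifiers in the sources used here, so each identity is an inference and is written as 12S-like, 16S-like, tRNA-like, COX3-like and CYTB-like.

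The mitochondrial genome is a small circular DNA that carries the rRNAs and tRNAs of the organelle's own translation machinery and the mRNAs of core subunits of the respiratory chain. Both strands are transcribed into long precursors, from which the tRNAs are cut, and this releases the rRNAs and mRNAs between them. COX3 is a subunit of cytochrome c oxidase (complex IV) and CYTB is the central subunit of the cytochrome bc1 complex (complex III). In testis, mitochondria change shape as germ cells mature and end up wrapped around the sperm midpiece, and in Leydig cells they carry out the first step of steroid synthesis.

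The libraries came from wild *Arvicola terrestris scherman* males, a fossorial vole, labelled WT and trapped in pastures in 2 seasons. S males (n = 18) were caught in summer, in July or August, W+ males (n = 5) in January or February with spermatogenesis maintained, and W- males (n = 11) in the same winter months without it. The winter groups were drawn by testis histology, and W- pooled animals of different degrees of arrest. Each library was made from the oligo-dT captured RNA of 1 animal, with no age in the labels, and its reads were aligned to the genome of another vole, *Microtus ochrogaster*, which the labels give as the organism. The testis label was not checked against cell type markers, since the sources used here give no symbol for any identifier. In bulk testis RNA, fewer cells of a type and less RNA per cell cannot be told apart.

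Values are RPKM, reads scaled to gene length in kilobases and to a library size set by the authors' size factors. The whole reads behind the RPKM could be recovered, and counted reads ran from 5534633 to 63857259 in S, 4960104 to 8576453 in W+ and 2938627 to 9653984 in W-. In a library of median size, 1 read was worth 0.157 RPKM for the 12S-like identifier, 0.190 for the COX3-like one and 2.22 for the shortest tRNA-like one. A count of 0 still allows up to 3 reads, and such limits cover counting error only.

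The reads on the run fell almost wholly on the 8 identifiers. Over all 34 libraries the 37 identifiers held 327825 reads, 99.97% of them on the 8 and 95.2% on the 12S-like and 16S-like identifiers. Each of the 8 had at least 93 reads and each other identifier at most 70, so the share on the 8 partly restates their choice. The 16S-like identifier had 159742 reads, the 12S-like 152288, the CYTB-like 9269 and the COX3-like 3097. The tRNA-like identifiers 013 and 014 had 2000 and 1124 reads, against 93 for 005 and 100 for 015. Of the other 29 identifiers, 22 had 0 reads in every library, where 3 of 365453937 counted reads would be 8.21e-07%, and 7 shared 112 reads.

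The identifier at the place of ND1, a subunit of complex I (ENSMOCG00000000006, 955 bases), had 70 reads in all, with at most 9 in a library and reads in 22 of 34 libraries. The identifier at the place of COX1, the catalytic subunit of complex IV (ENSMOCG00000000016, 1545 bases), had 23 reads, with at most 3 in a library and reads in 13 libraries. COX1-like and COX3-like reads therefore differed widely although both proteins sit in the same complex and the COX1-like identifier is the longer. How the reads of this run were lost or kept in alignment was not tested, and a level below is a level of counted reads.

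**Figure D1:**
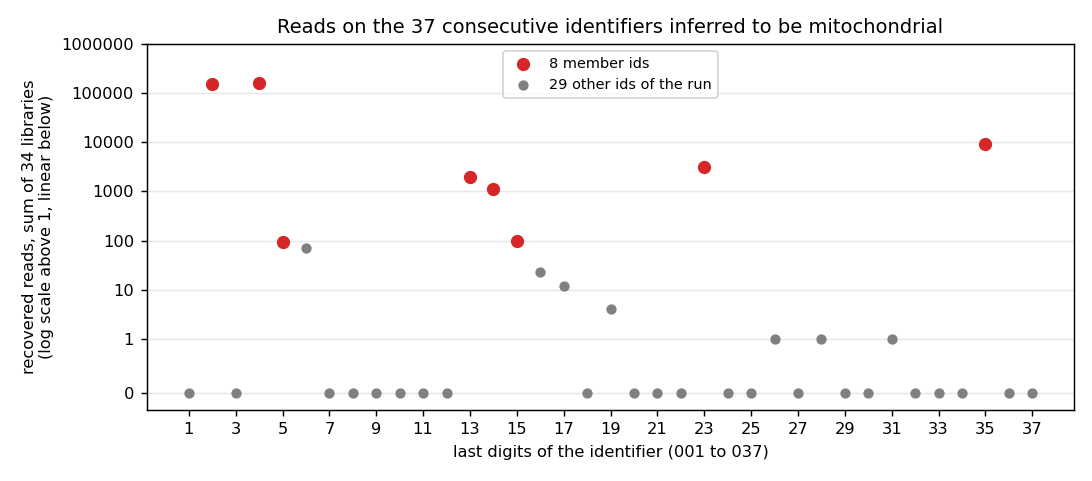
Recovered reads summed over the 34 libraries (vertical axis, logarithmic above 1) for each of the 37 consecutive identifiers (horizontal axis, in order), with the 8 members in red and the 29 others in grey. The 12S-like and 16S-like identifiers stand at 152288 and 159742 reads, and 22 of the grey points lie at 0.

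The mRNA-like values split the libraries before they split the groups. COX3-like RPKM was 6.54 to 40.8 in 18 libraries (S replicates 1 to 9, W- replicates 1 to 8 and W+ replicate 1) and 0 to 5.00 in the other 16 (S replicates 10 to 18, W- replicates 9 to 11 and W+ replicates 2 to 5). Among S the gap lay between 3.99 and 18.8 RPKM and among W+ between 3.41 and 17.7, whereas in W- it was narrow, between 5.00 and 6.54. These 2 sets of libraries, named first and second below, were defined from the COX3-like values themselves, so their ranges are descriptions with no test. The only p-values given within the sets are those of the relation between the rRNA-like levels, which was added after seeing the data. The replicate numbers are those of the labels, which name no capture year, site or sequencing run for a library, so what else the sets differ in was not tested.

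In the first set, the 9 S libraries had 7148702 to 7974919 counted reads, and in the second 5534633 to 63857259. The 4 deepest libraries, S replicates 12 to 15, are all in the second set. The first set held 9 of 18 S, 8 of 11 W- and 1 of 5 W+ libraries, so group and set were partly confounded, above all in W+ against W-.

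The COX3-like identifier had a mean of 12.9 ± 10.8 RPKM in S (SD, n = 18), with a lowest, median and highest value of 0, 11.4 and 27.6. In W- it had 16.5 ± 12.5 RPKM (SD, n = 11), with 2.59, 15.5 and 40.8. The W+ replicates 1 to 5 had 17.7, 3.41, 0.849, 1.96 and 2.82 RPKM. W+ replicate 1 stood far above the rest of its group, and the 3 groups overlapped. In S replicate 10 no COX3-like read was counted among 5534633, which allows up to 0.807 RPKM.

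The CYTB-like identifier was lower in S and in W+ than in W-. It had 18.6 ± 10.4 RPKM in S (SD, n = 18), with a lowest, median and highest value of 0.738, 18.7 and 37.2, and 38.5 ± 20.6 RPKM in W- (SD, n = 11), with 15.1, 28.5 and 70.6. The W+ replicates 1 to 5 had 40.4, 13.3, 2.62, 9.98 and 12.5 RPKM. Of the W+ libraries, 4 lay below every W- library and 1 among them, while S and W- overlapped between 15.1 and 37.2.

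CYTB-like RPKM followed the same 2 library sets. In the first set S had 22.9 to 37.2, W- 24.6 to 70.6 and W+ replicate 1 had 40.4 RPKM. In the second set S had 0.738 to 14.4, W+ 2.62 to 13.3 and W- 15.1 to 23.7 RPKM. W- therefore reached above S in both sets, with overlap in the first and none in the second, where W- has 3 libraries. The lowest CYTB-like value was that of S replicate 15, with 18 reads beside 49 COX3-like reads in the same library, although CYTB-like reads outnumbered COX3-like reads in the other 33.

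**Figure D2:**
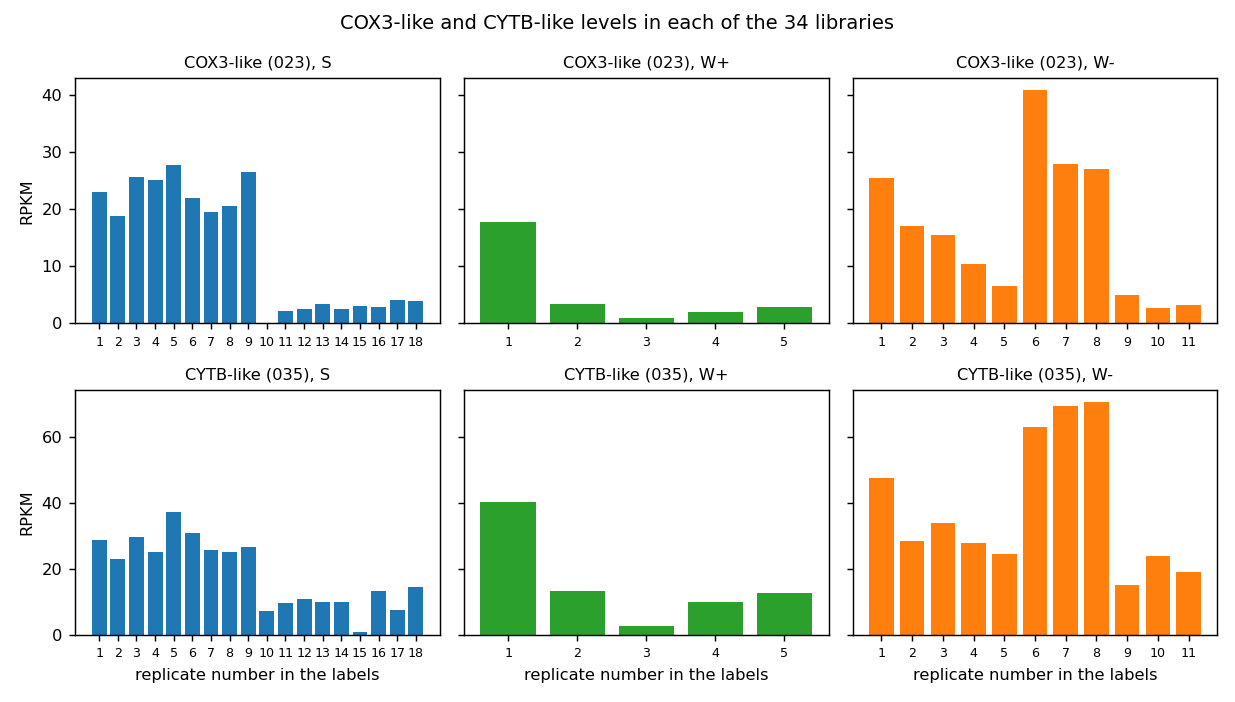
COX3-like (top) and CYTB-like (bottom) RPKM in each library, as bars by replicate number in the labels, for S, W+ and W-. S replicates 10 to 18, W+ replicates 2 to 5 and W- replicates 9 to 11 are the lowest of their groups for both identifiers. Their COX3-like values are 0 to 5.00 RPKM. The CYTB-like values of W- replicates 9 to 11, 15.1 to 23.7 RPKM, reach into the first-set S range of 22.9 to 37.2.

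The 3 groups were compared with limma on log2(RPKM + 0.1) over all 19185 genes that passed a filter on low values, and all 8 identifiers passed it. A gene was called at an adjusted p (Benjamini-Hochberg) under 0.05 with a log2 fold change beyond 1. On this log2 scale the fold of a low gene is understated. Separate animals are the replicates.

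In S against W-, 1 of 8 identifiers was called, CYTB-like, lower in S by a log2 fold change of -1.21 ± 0.42 (SE, limma adjusted p = 0.00908). Over all genes tested, 22.8% were called lower in this comparison, so 1 of 8 is not above the background. The CYTB-like call was lost without S replicates 12 to 15, where the difference was -0.81 (limma adjusted p = 0.0310), since it then fell short of the fold threshold. COX3-like differed by -0.78 ± 0.67 and was not called (limma adjusted p = 0.280). It was called when scaled by total counted reads (-1.47, limma adjusted p = 0.0392), a scaling that put the median of all genes at -0.54. The median log2 fold change of the 8 was -0.38, beside 0.04 for all genes tested.

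In W+ against W-, CYTB-like was again the 1 identifier called, lower in W+ by -1.58 ± 0.59 (SE, limma adjusted p = 0.0198), where 15.4% of all genes were called lower. Without W+ replicate 3, the library with the lowest value, the difference was -1.07 and no longer called (limma adjusted p = 0.130). COX3-like was -1.87 ± 0.94 and not called (limma adjusted p = 0.0803), but without W+ replicate 1 it was -2.49 and called (limma adjusted p = 0.0287). It was also called when scaled by total counted reads (-2.23, limma adjusted p = 0.0327) and with quantile normalization (-2.18, limma adjusted p = 0.0384), with the median of all genes at -0.34 and -0.31. The first-set share of 8 of 11 W- against 1 of 5 W+ libraries moves with this difference, and its part was not tested. The median of the 8 was 0.17, beside -0.02 for all genes.

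In W+ against S, limma called none of the 8, where 8.23% of all genes were called in either direction. None had an unadjusted p under 0.05. With voom on the recovered reads 1 was called, the tRNA-like identifier 014, and no share over all genes was computed for voom. CYTB-like differed by -0.37 ± 0.56 (limma adjusted p = 0.672) and COX3-like by -1.09 ± 0.88 (limma adjusted p = 0.387), and within 2 standard errors both reach beyond the fold threshold. The median of the 8 was -0.02, beside -0.06 for all genes.

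**Figure D3:**
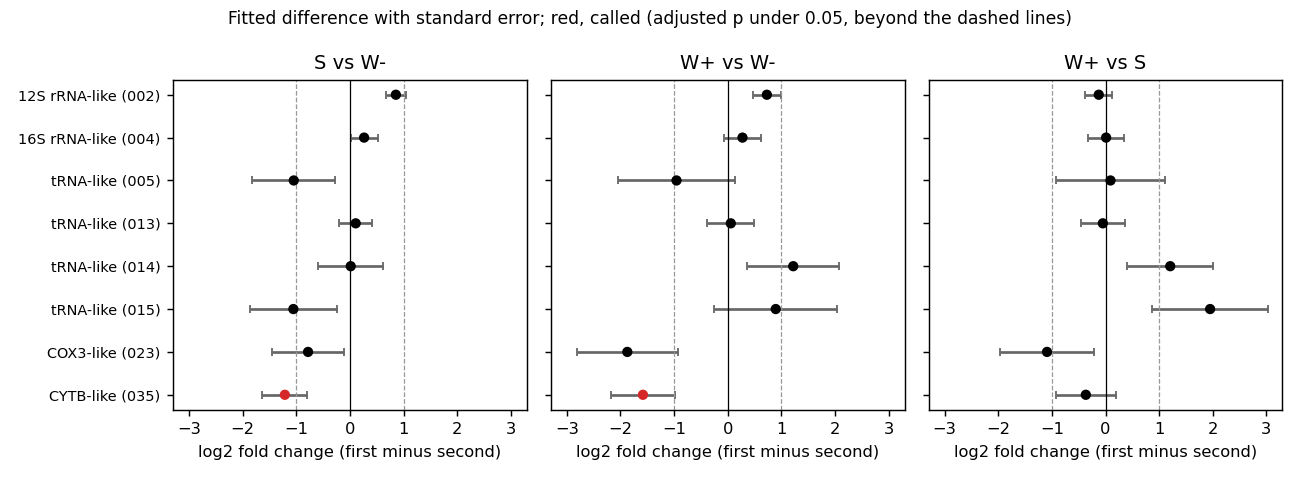
Fitted log2 fold change (horizontal axis, first group minus second) of the 8 identifiers in the 3 comparisons, with bars of 1 standard error, dashed lines at the fold threshold of 1 and called identifiers in red. The red points are CYTB-like, at -1.21 in S against W- and -1.58 in W+ against W-, and none is red in W+ against S.

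The 12S-like identifier, the rRNA of the small mitochondrial ribosomal subunit, leaned the other way from CYTB-like. It had 600.7 ± 200.03 RPKM in S (SD, n = 18), with a lowest, median and highest value of 258, 628 and 872, and 329 ± 112 in W- (SD, n = 11), with 181, 323 and 575. The W+ replicates 1 to 5 had 379, 454, 798, 351 and 784 RPKM. In the first library set the medians were 792 RPKM in S and 294 in W-. In the second they lay closer, at 444 in S and 343 in W- (n = 3), with W+ at 619 (n = 4). The part of the sets in the differences below was not tested. The fitted difference was 0.86 ± 0.19 in S against W- (limma adjusted p = 0.000119) and 0.73 ± 0.27 in W+ against W- (limma adjusted p = 0.0174). Both passed the adjusted p but stayed under the fold threshold, so neither was called, and all groups overlapped. In each of these comparisons 2 of the 8 identifiers passed the adjusted p, 12S-like and CYTB-like. The share of all genes passing it without the fold threshold was not computed, so these passes have no background beside them. In S against W- the unadjusted limma p was 7.27e-05. The adjustment raised it little, as happens where many of the genes tested have p-values about as small. With other scalings the difference in S against W- no longer passed, at 0.14 when scaled by total counted reads (limma adjusted p = 0.484) and 0.31 with quantile normalization (limma adjusted p = 0.163), which put the median of all genes at -0.54 and -0.36. In W+ against W- it did not pass when scaled by total counted reads (0.37, limma adjusted p = 0.228), without W+ replicate 3 (0.58, limma adjusted p = 0.0819) or without W+ replicate 5 (0.58, limma adjusted p = 0.0793).

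The 16S-like identifier, the rRNA of the large subunit, had close group means but a wider spread in winter. It had 294 ± 73.4 RPKM in S (SD, n = 18), with a lowest, median and highest value of 214, 279 and 462, and 300.0 ± 202 in W- (SD, n = 11), with 91.4, 246 and 698. The W+ replicates 1 to 5 had 240, 347, 166, 268 and 539 RPKM. W- held both the lowest and the highest library, and its spread followed the library sets, with 91.4 to 419 RPKM in the first and 422 to 698 in the second. The order of S and W- turned between the sets, with medians of 242 in S and 148 in W- in the first and of 319 and 516 in the second, where W- has 3 libraries. The differences were 0.26 ± 0.25 in S against W- (limma adjusted p = 0.333), 0.27 ± 0.35 in W+ against W- (limma adjusted p = 0.513) and 0.01 ± 0.33 in W+ against S (limma adjusted p = 0.986).

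Across W- libraries the rRNA-like levels rose and fell together, with Pearson's r = 0.77 (permutation p = 0.00516, adjusted 0.0103 over 6 relations computed) and Spearman's rho = 0.74 (permutation p = 0.0130, adjusted 0.0194). Without the 2 libraries farthest from the median 12S-like level, r was 0.76. Across S libraries r was -0.41 (permutation p = 0.0920, adjusted 0.110) and rho -0.39 (permutation p = 0.109, adjusted 0.131), and r was -0.57 without the 2 farthest. This negative value in S was not seen within either library set, where r was 0.54 (n = 9, exact permutation p = 0.141, adjusted 0.211 over 3) in the first and 0.12 (n = 9, exact permutation p = 0.772, adjusted 0.772) in the second. The first-set W- libraries gave r = 0.87 (n = 8, exact permutation p = 0.00521, adjusted 0.0156), and the other 3 were too few. The sets were drawn from values of these same libraries, and the relations within them were added after seeing the data. Their p-values are therefore descriptive. The 4 relations that involve the COX3-like identifier are given no pooled r, since its values form separate ranges.

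The 4 tRNA-like identifiers were unevenly counted, and none was called in any of the 3 comparisons. tRNAs carry amino acids to the ribosome. Strand use in the counting is not given in the sources used here, so reads from the opposite strand at these places cannot be told apart from their own. Per the study's methods, reads before trimming were at least as long as these identifiers. A read counted here may therefore also cover neighbouring sequence, and the values need not be levels of mature tRNA. Identifier 013 had 78.9 ± 22.7 RPKM in S (SD, n = 18; range 35.2 to 125) and 93.1 ± 66.2 in W- (SD, n = 11; range 15.3 to 226). Its W+ replicates 1 to 5 had 94.3, 74.3, 21.4, 78.7 and 178 RPKM. The 3 groups overlapped throughout, with fitted differences of 0.11 ± 0.31, 0.06 ± 0.44 and -0.05 ± 0.41 in S against W-, W+ against W- and W+ against S.

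Identifier 014 had 33.3 ± 11.5 RPKM in S (SD, n = 18), with a lowest, median and highest value of 15.9, 31.1 and 58.8, and 56.4 ± 34 in W- (SD, n = 11), with 0, 46.7 and 105. The W+ replicates 1 to 5 had 48.5, 37.1, 90.5, 136 and 91.6 RPKM, of which 3 lay above every S library. The difference in W+ against S was 1.21 ± 0.80 and not called (limma adjusted p = 0.281). It was called when W- was left out of the fit, with the same difference of 1.21 (limma adjusted p = 0.00105), and with voom on the recovered reads, at 1.09 (adjusted p = 0.0423). The W- library at 0, replicate 5, is the shallowest of all with 2938627 counted reads, and a count of 0 there allows up to 10.8 RPKM.

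Identifiers 005 and 015 were at the limit of detection. Identifier 005 had 3.19 ± 3.18 RPKM in S (SD, n = 18), 3.83 ± 3.63 in W+ (SD, n = 5) and 5.56 ± 3.89 in W- (SD, n = 11), and was at 0 reads in 3 S, 1 W+ and 1 W- libraries. Identifier 015 had 3.23 ± 2.77, 6.50 ± 3.88 and 5.96 ± 6.78 RPKM in S, W+ and W-, and was at 0 in 5 S and 1 W- libraries, where up to 6.90 to 10.9 RPKM would be allowed. Neither was called, the difference farthest from 0 being 1.95 ± 1.08 for 015 in W+ against S (limma adjusted p = 0.184). Identifier 005 was -1.05 ± 0.77 in S against W- (limma adjusted p = 0.211), but when scaled by total counted reads, which put the median of all genes at -0.54, it was -1.66 and called (limma adjusted p = 0.0460).

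**Figure D4:**
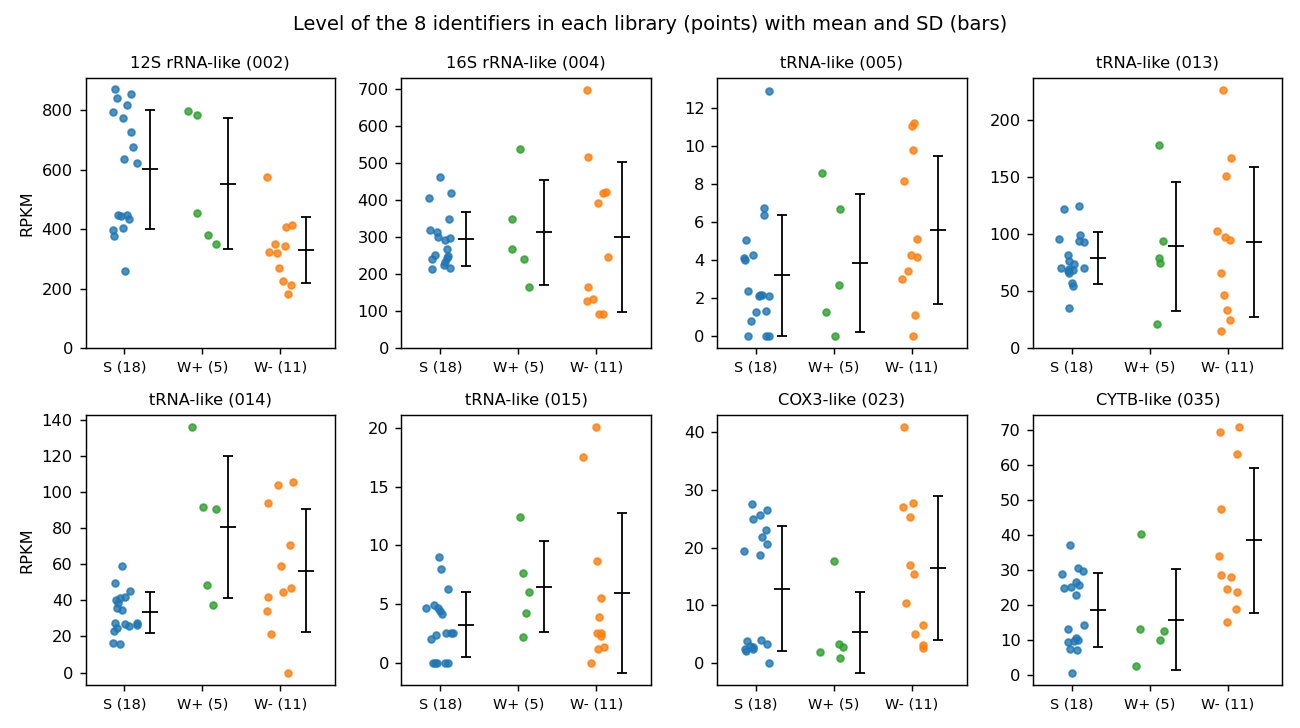
RPKM of each of the 8 identifiers (1 panel each, linear axes) in S, W+ and W-, with a point per library and a bar for the mean and SD. The groups overlap in every panel, and the COX3-like points of S part into a range of 0 to 3.99 and one of 18.8 to 27.6 RPKM.

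A ratio of reads within a library does not depend on the size factor. The log2 ratio of rRNA-like over mRNA-like reads averaged 5.39 in S and 3.80 in W-, a difference of 1.59 (two-sided permutation p = 0.00142, adjusted 0.0170 over 12 ratio tests). In W+ it averaged 5.97, a difference from W- of 2.17 (exact permutation p = 0.00962, adjusted 0.0577) that missed the threshold, and from S of 0.58 (exact permutation p = 0.383, adjusted 0.474). Both library sets held the order of S over W-. In the first the ratio was 3.79 to 4.80 in S and 2.73 to 3.51 in W-, with W+ replicate 1 at 3.60. In the second it was 5.46 to 8.50 in S, 5.75 to 8.11 in W+ and 5.05 to 5.92 in W-, and the ranges of S and W- overlapped. Within S the set medians were 4.40 and 6.20, farther apart than the means of S and W-. COX3-like reads, which defined the sets, are in the denominator of this ratio, so its set difference is partly built in. The permutations took no account of the sets, and the part of the sets in the group differences was not tested.

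The tRNA-like over mRNA-like ratio averaged -0.38 in W+, -1.57 in S and -2.44 in W-. The difference of 2.06 in W+ against W- missed the threshold after adjustment (exact permutation p = 0.0156, adjusted 0.0623), as did 0.86 in S against W- (permutation p = 0.0700, adjusted 0.165) and 1.19 in W+ against S (exact permutation p = 0.0824, adjusted 0.165). Without W+ replicate 1, the rRNA-like and tRNA-like ratios differed between W+ and W- by 2.76 and 2.60, and both passed (exact permutation, adjusted p = 0.0234 for each). That leaves 4 second-set W+ libraries against W- libraries of which 8 of 11 are in the first set, so group and set cannot be told apart there. The tRNA-like ratio followed the sets, with medians of -2.54 and -0.79 in S and -3.12 and -0.61 in W-. This too is partly built in, since its denominator holds the COX3-like reads that defined the sets. In the second set W+ (-1.18 to 1.30) and W- (-0.98 to -0.49) overlapped.

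The 16S-like over 12S-like ratio averaged -0.30 in S, -0.17 in W+ and 0.29 in W-. The difference of -0.59 in S against W- had a permutation p of 0.0487 and 0.146 after adjustment. Without S replicates 12 to 15 it was -0.77 and passed (permutation, adjusted p = 0.0467). In S this ratio was -1.23 to -0.22 in the first set and -0.61 to 0.74 in the second, and in W- -0.74 to 0.62 and 0.98 to 1.43, so that it was higher in the second set in both groups. W+ replicate 3, at -1.58, had the lowest ratio of all libraries.

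The COX3-like over CYTB-like ratio averaged -1.60 in S, -2.34 in W+ and -2.06 in W-, and no comparison passed (adjusted p of 0.474 to 0.499, permutation tests). Within the first set, S libraries had -1.03 to -0.54 and W- libraries -2.43 to -1.17, with W+ replicate 1 at -1.73, so the S and W- ranges did not overlap there. In the second set the S range, -6.30 to 1.42, covered both other groups, but its ends rest on small counts. They are S replicate 10, with 0 COX3-like reads, and S replicate 15, with 18 CYTB-like reads. The remaining second-set S libraries ran from -2.73 to -1.44, beside -2.84 to -2.04 in W+ and -3.71 to -2.12 in W-. Both end libraries are in the S mean and in the tests with S.

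**Figure D5:**
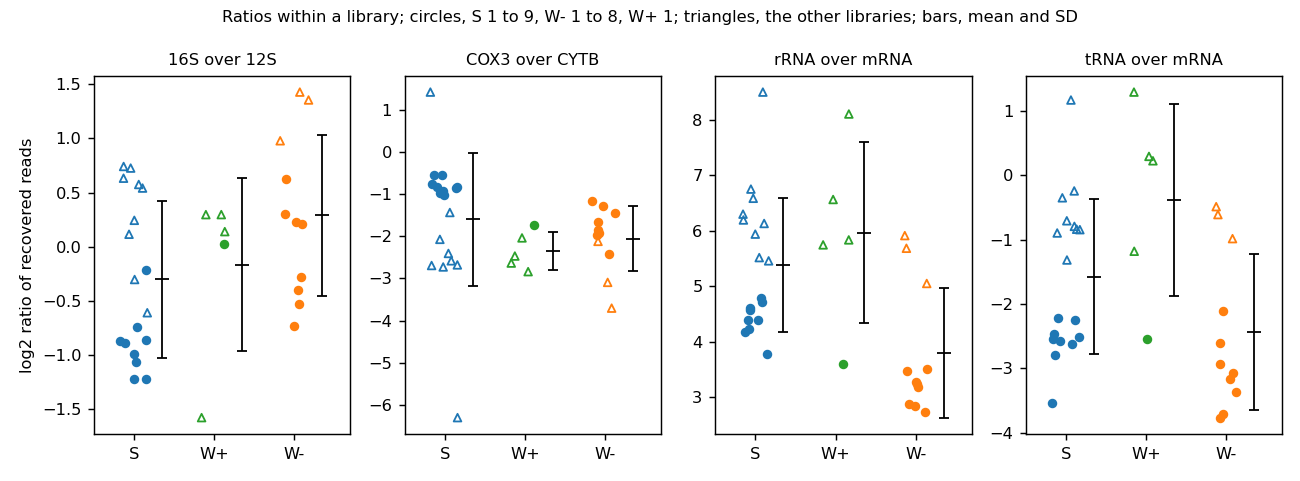
Log2 ratios of recovered reads within a library (vertical axes) for 4 pairs, by group, with circles for the first library set, triangles for the second and bars for the mean and SD. In the rRNA-like over mRNA-like panel the S circles lie at 3.79 to 4.80 and the S triangles at 5.46 to 8.50, above the W- circles at 2.73 to 3.51.

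The share of all counted reads on the 37 identifiers was small, and no difference between groups passed the test. It was 0.0887% ± 0.0159 in S (SD, n = 18; range 0.0510 to 0.113), 0.109% ± 0.0305 in W+ (SD, n = 5; range 0.0788 to 0.160) and 0.116% ± 0.0559 in W- (SD, n = 11; range 0.0487 to 0.202). The differences were -0.0269 in S against W- (permutation p = 0.0719, adjusted 0.124 over 3), -0.00635 in W+ against W- (exact permutation p = 0.826, adjusted 0.826) and 0.0205 in W+ against S (exact permutation p = 0.0830, adjusted 0.124). Both the lowest and the highest share were those of W- libraries. The order of S and W- turned between the library sets. The medians were 0.0991% in S and 0.0737% in W- in the first set. In the second they were 0.0860% and 0.159%, where the 3 W- libraries (0.145 to 0.202) lay above all S (0.0510 to 0.104). The pooled difference therefore averages over opposite orders. The sign of each pooled difference turned when the share was taken of the size-factor library size in place of the counted reads.

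Outside the run, the genes whose deviations from their group means followed the identifiers most closely were named by their correlation over 34 libraries, among 19174 genes and with no test. For the rRNA-like pair these were ENSMOCG00000022072 (r = 0.82) and ENSMOCG00000015624 (r = -0.78). The first had 17.5 to 27.8 RPKM in S, 13.0 to 26.3 in W+ and 1.76 to 17.1 in W-. For the mRNA-like pair they were ENSMOCG00000018277 (r = 0.80) and ENSMOCG00000018515 (r = -0.82). The last had 74.7 to 88.3 RPKM in the first-set S libraries and 80.9 to 239 in the second-set ones, and in W- 44.1 to 58.3 and 59.3 to 63.3. The libraries differ in depth and library set, and the part of these in the correlations was not tested. The median correlation over all genes was -0.06 for the rRNA-like and 0.01 for the mRNA-like pair.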

How the data were processed

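RNA of 34 testes, 1 library per animal, was analysed from the RPKM deposited by the authors. Per the study's methods, reads were trimmed with trim_galore 0.6.10, checked with FastQC 0.12.1, aligned with HISAT2 to MicOch1, counted with HTSeq-count and normalized by size factors. The submitters' processing notes list a mouse build instead, but the identifiers are those of the prairie vole. Not given in the sources used here are the annotation release, the strand setting and how multi-mapped reads were treated. Columns not used numbered 0.

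Whole reads were recovered from the RPKM steps (100% of values within 0.02 of a whole number), and library sizes proved proportional to median-of-ratios size factors of 14354 genes. The main test was limma 3.58.1 in R 4.3.3 (eBayes with trend) on log2(RPKM + 0.1), for 19185 genes with at least 0.1 RPKM in at least 5 libraries, with all 34 libraries in 1 fit. Shares and ratios were tested by permutation (scipy 1.17.1, exact for W+, otherwise 100000 resamples), with 0.5 reads added where a side was 0 in any library. Scripts were tested on simulated data.

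Groups came from the labels. The identifiers, lists and tests were chosen with earlier results of these data known. All 8 identifiers were named, of the other 29 those averaging at least 1 read per library, and for each pair the genes with the highest and lowest correlation. The COX1-like identifier falls outside this rule and was named for the comparison with COX3. Lists of testis cell markers and of nuclear mitochondrial genes were not run, since no source used here pairs identifiers with symbols. Alternatives covered scaling, pseudocount, filter, voom, the fold threshold, a replicate block and left-out libraries. The relation within library sets was added after seeing the data.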

Additional observations from a re-analysis of the deposited data

Results flagged for a closer look

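In 3 of 13 measures examined among the 5 W+ libraries, 1 library stood far from the other 4, its gap to the nearest being over 0.71 of the group's range. For normally spread values chance alone gives such a gap in about 1 of 20 groups, and the measures share libraries. COX3-like RPKM was 17.7 in W+ replicate 1 and 0.849 to 3.41 in the others. CYTB-like RPKM was 40.4 in the same library and 2.62 to 13.3 in the others. The log2 ratio of 16S-like over 12S-like reads was -1.58 in W+ replicate 3 and 0.02 to 0.30 in the others. W+ replicate 1 is the only W+ library of the first set, which was drawn from the COX3-like values. Its COX3-like flag therefore restates that split, and CYTB-like values followed the same sets. What else sets these libraries apart was not tested.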

How the results depend on the processing

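The CYTB-like difference was negative in S against W- and in W+ against W- under every alternative run, and scaling turned the sign of 16S-like, 013 and 014 in S against W-, of 16S-like and 013 in W+ against W- and of 12S-like and 013 in W+ against S. The share of all genes called was computed for the main fit only, so the counts under the alternatives have no background beside them. Identifiers called (1, 1 and 0 of 8 in S against W-, W+ against W- and W+ against S) were 3, 2 and 0 with either total of reads as scaling. With quantile normalization they were 2 in W+ against W-, and with only the groups compared in the fit 2 in W+ against W- and 1 in W+ against S. Without a fold threshold they were 2 and 2 in the comparisons with W-, with voom 1 in W+ against S, and without S replicates 12 to 15 0 in S against W-. Leaving out a W+ library gave 0 to 2 in W+ against W- (0 without replicate 3, 2 without replicate 1). With a replicate block, 2 were called in each comparison. They were 12S-like (1.06) and 015 (-1.86, limma adjusted p = 0.0414) in S against W-, COX3-like (-2.51) and CYTB-like (-1.71) in W+ against W-, and 015 (3.40, limma adjusted p = 0.0317) and COX3-like (-2.45) in W+ against S. CYTB-like in S against W- was then not called (-0.60, limma adjusted p = 0.0725). The block set W+ replicates 2 to 5, of the second library set, beside S and W- replicates 2 to 5, of the first. Group and set were therefore largely confounded in its comparisons with W+. The replicate numbers share no animal, and of 11, 5 and 5 same-numbered pairs, 0, 1 and 0 correlated over 0.1, so they do not pair the libraries.

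Signs turned as follows (log2). In S against W-, 16S-like was -0.45 with either total and -0.43 with quantiles, 013 -0.60 and -0.62, and 014 -0.65 and -0.61, with 014 also at -0.27 (pseudocount 1), -0.41 (voom), -0.13 (replicate block) and -0.078 (without S replicates 12 to 15). In W+ against W-, 16S-like was -0.088 with either total and 013 -0.31 with totals and -0.30 with quantiles. In W+ against S, 12S-like was 0.22 with either total and 0.36 with quantiles, 013 was 0.30, 0.32, 0.017 (voom) and 0.33 (replicate block), 16S-like -0.014 (voom), and 005 -0.0084 (pseudocount 0.01) and -0.28 (replicate block). Leaving out a W+ library, 005 ran from -1.51 to 0.10 and 013 from -0.26 to 0.50 in W+ against W-, and in W+ against S 12S-like from -0.28 to 0.016, 16S-like -0.21 to 0.21, 005 -0.46 to 1.15, 013 -0.37 to 0.39 and CYTB-like -0.83 to 0.15. Scaling by totals put the median of all genes at -0.54, -0.34 and 0.25.

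The rRNA-like and tRNA-like ratios in W+ against W- ran from 1.64 to 2.76 and from 1.64 to 2.60 without single W+ libraries, and passed without replicate 1. The 16S-like ratio in S against W- passed without S replicates 12 to 15 (-0.77). As a percent of the size-factor library size, the share differed by 0.0220, 0.0197 and -0.00229 in S against W-, W+ against W- and W+ against S, and without single W+ libraries it ran from -0.0191 to 0.00126 in W+ against W-. The cause of these changes was not tested.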
